A study of Mus musculus with 6 samples.

Results

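Complex I of the respiratory chain was followed through the genes whose symbols begin with Nduf, as listed in the table of footprint counts per gene. The table holds 48 such genes among 21652, of which 40 are named as structural subunits (Ndufa, Ndufb, Ndufc, Ndufs and Ndufv) and 8 as assembly factors (Ndufaf1 to Ndufaf8). Counts were sufficient for a test in 38 of the 40 subunit genes and in all 8 assembly factor genes. A footprint is the stretch of mRNA that a ribosome shields during nuclease digestion. A gene's count therefore holds mRNA level and ribosome density together, and no RNA-seq was used here to separate the pair; likewise, in these bulk libraries a change in the make-up of the culture cannot be told apart from a change per cell. All libraries came from MIN6, an insulinoma line of mouse origin. The 3 control libraries carried the guide sgNT (read here as non-targeting), and the other 3 carried sgLTN1, directed at Ltn1. Ltn1 encodes Listerin, the ubiquitin ligase of ribosome-associated quality control. The labels do not state whether the cells were a pool or a clone, or whether replicate libraries were grown separately, so the p-values measure a spread that may be technical. All 6 libraries share one batch label.

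Complex I oxidises NADH, passes the electrons to ubiquinone and pumps protons across the inner mitochondrial membrane. Its N module holds the flavin and accepts the electrons, its Q module carries them along iron-sulfur clusters to ubiquinone, and its proximal and distal membrane arms pump protons. The core of the membrane arm is encoded by mitochondrial DNA and translated inside the organelle, whereas every Nduf protein is made on cytosolic ribosomes and imported. Assembly factors hold, modify or join the modules and are not part of the finished enzyme. In beta cells oxidation of NADH by the respiratory chain links glucose uptake to the ATP rise that triggers insulin release.

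Nuclear genes of the respiratory chain are known for sharing promoter motifs, and the promoters of the Nduf genes were searched for 6 of them. RefSeq promoters (build GRCm38.p6, 250 bases before to 50 after the start) were found by symbol for 41 of the 48 genes, some with more than one start, giving 43 promoters. All motifs were searched on both strands. The motif of NRF1, a regulator of mitochondrial genes, searched as GCGCANGCG, lay in 11 of 43 Nduf promoters (25.6%), against 12.6% of the 12633 promoters of genes tested in these cells and 6.25% of all 32851 promoters in the table. The 11 count a single Ndufa5 site more than once, since the promoters of its listed starts overlap. Counted by gene, 10 of 41 Nduf genes (24.4%) had an NRF1 match, against 14.9% of tested genes with a promoter. The motif of YY1, searched as AAGATGGCG, lay in 6 Nduf promoters (14.0%), against 2.94% and 1.40%. By gene its shares were 14.6% and, among tested genes, 3.62%. For the other motifs the shares among Nduf promoters and promoters of tested genes were 32.6% and 38.0% for CCAAT, 11.6% and 7.25% for TATAAA, 2.33% and 7.69% for the ETS motif CCGGAAGT, and 0% and 0.245% for the ERR motif TCAAGGTCA. No match of a motif overlapped a match of another in the Nduf promoters. The median GC content was 59.3% in the Nduf promoters and 60.7% in those of tested genes. A match describes letters in a window, not a bound site, and no share was tested.

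The following 30-base windows show these matches in capitals for genes whose footprints are described below, each 5′ to 3′ along its gene. The first 4 hold the NRF1 motif, on either strand, and the matches begin 15, 26, 60 and 113 bases before the start (for Ndufa5, the nearer of its listed starts).
Ndufs6 (chr13:73328478-73328507, - strand): gactgctgtgCGCCTGCGCcggcacttggt
Ndufa5 (chr6:24527697-24527726, - strand): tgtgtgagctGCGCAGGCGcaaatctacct
Ndufa11 (chr17:56717692-56717721, + strand): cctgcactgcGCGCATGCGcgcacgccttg
Ndufaf4 (chr4:24897960-24897989, + strand): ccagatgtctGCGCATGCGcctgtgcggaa
The next 3 hold the YY1 motif on the gene's own strand, with matches that begin 33, 10 and 24 bases after the start.
Ndufs6 (chr13:73328433-73328462, - strand): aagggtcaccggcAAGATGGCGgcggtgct
Ndufaf8 (chr11:120098934-120098963, + strand): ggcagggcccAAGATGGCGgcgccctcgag
Ndufs7 (chr10:80249463-80249492, + strand): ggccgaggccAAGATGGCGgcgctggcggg
Ndufs6 held both motifs. Of the subunit genes with a promoter and a test, the 7 with an NRF1 match had a median log2 fold change (sgLTN1 over sgNT) of -0.11 and the 26 without had -0.052, a difference that was not tested. The 2 assembly factor genes with the motif, Ndufaf4 and Ndufaf5, both lay above 0.

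The libraries held between 4373467 and 11198735 counts, of which Nduf genes took between 0.317% and 0.358%. Ltn1 read 143 ± 1.84 CPM (counts scaled to the size of the library; mean ± SD, n = 3 per group) in sgNT and 67.2 ± 3.67 CPM in sgLTN1, with a Benjamini-Hochberg adjusted p = 9.24e-05 by the quasi-likelihood method of edgeR. Of 9 beta-cell markers, 8 had enough counts for a test and Slc2a2, at 35 counts over the 6 libraries, did not. In edgeR's fit 5 of the 8 lay above 0 and 3 below. Slc30a8 (log2 fold change 0.23, SE 0.07) and G6pc2 (0.15, SE 0.05) had the smallest p-values, and all their sgLTN1 values exceeded all sgNT values. Pdx1 (-0.12, SE 0.07) came next, with all sgLTN1 values below. EdgeR called none of the 8, beside 0.180% of tested genes. DESeq2 called 1 of them, beside 10.7% of genes with an adjusted p. Markers of acinar cells (1 to 33 counts each) and duct cells (9 and 12 counts each) were below the minimum for a test, while 3 of 4 markers of other islet cells (Gcg, Sst and Ppy) could be tested, and none was called. Of the stroma, vessel and blood markers, Col1a1 had 229 counts and was not called (log2 fold change -0.44, SE 0.28, adjusted p = 0.478 in edgeR). Pecam1 and Ptprc had 18 and 20 counts and were not tested. Gcg read 562 ± 14.5 and 566 ± 34.7 CPM in sgNT and sgLTN1. Sst, the somatostatin gene of delta cells, read 28.9, 30.6 and 31.7 CPM in sgNT libraries 1 to 3 and 40.5, 42.0 and 47.5 CPM in sgLTN1 libraries 1 to 3, with all sgLTN1 values above all sgNT values (log2 fold change 0.50, SE 0.09, adjusted p = 0.0620 in edgeR). Ppy, the pancreatic polypeptide gene, read 2.06, 3.96 and 3.88 CPM in sgNT libraries 1 to 3 and 4.97, 6.95 and 6.37 CPM in sgLTN1 libraries 1 to 3, again with separate groups (log2 fold change 0.82, SE 0.26, adjusted p = 0.176 in edgeR). Their part in the results on Nduf genes was not tested.

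No Nduf gene passed the threshold of 0.05 on the adjusted p from edgeR, which 0.180% of the 12782 tested genes passed, 0.0939% lower and the rest higher. This background of 23 genes depended on the libraries: it was 9 genes without sgNT library 1 or 2, 12 without sgNT library 3, 6 without sgLTN1 library 1, 4 without sgLTN1 library 2 and 333 without sgLTN1 library 3, and no Nduf gene was among them. DESeq2 on the same counts called none of the 20 Nduf genes to which it gave an adjusted p, where it called 10.7% of the 2293 genes with one, and 1 of the 46 had an unadjusted p below 0.05 there, beside 8.56% of the 12782 genes. At an unadjusted p below 0.05 in edgeR there were 6 Nduf genes, all with lower footprints in sgLTN1: the subunit genes Ndufs3, Ndufs6, Ndufb6 and Ndufa5 and the assembly factor genes Ndufaf1 and Ndufaf8. Of all tested genes, 15.6% were at this level in either direction and 7.56% were at this level and lower. The smallest adjusted p of an Nduf gene was 0.138, for Ndufs3. Library values did not overlap between the groups for 8 of the 46 tested Nduf genes, 7 lower and 1 higher in sgLTN1, where 20.2% of tested genes did not overlap, 10.1% lower and 10.1% higher, so the number of separated genes was near the background.

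Most of the subunits lay slightly below 0. Of 38 tested subunit genes, 30 had a log2 fold change below 0, with a median of -0.060 and a range from -0.36 to 0.58, while 52.7% of all tested genes lay below 0 with a median of -0.016. Of the 8 assembly factor genes, 5 lay below 0, with a median of -0.094 and a range from -0.50 to 0.12. With DESeq2's size factors 26 subunit genes lay below 0, beside 48.7% of all tested genes. By total counts 34 did, beside 66.9% of all tested genes. Each scaling tried kept both medians below 0. These medians are small beside the error of a single gene, whose median SE was 0.0849 for subunits and 0.159 for assembly factors. The 95% interval of the log2 fold change excluded a 1.5-fold difference in both directions for 36 of 38 subunit genes and 6 of 8 assembly factor genes, and a 1.3-fold difference for 33 of 38 and 1 of 8. The exceptions at 1.5-fold were Ndufs6 and Ndufa4l2 among the subunits and Ndufaf1 and Ndufaf8 among the assembly factors.

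**Figure D1:**
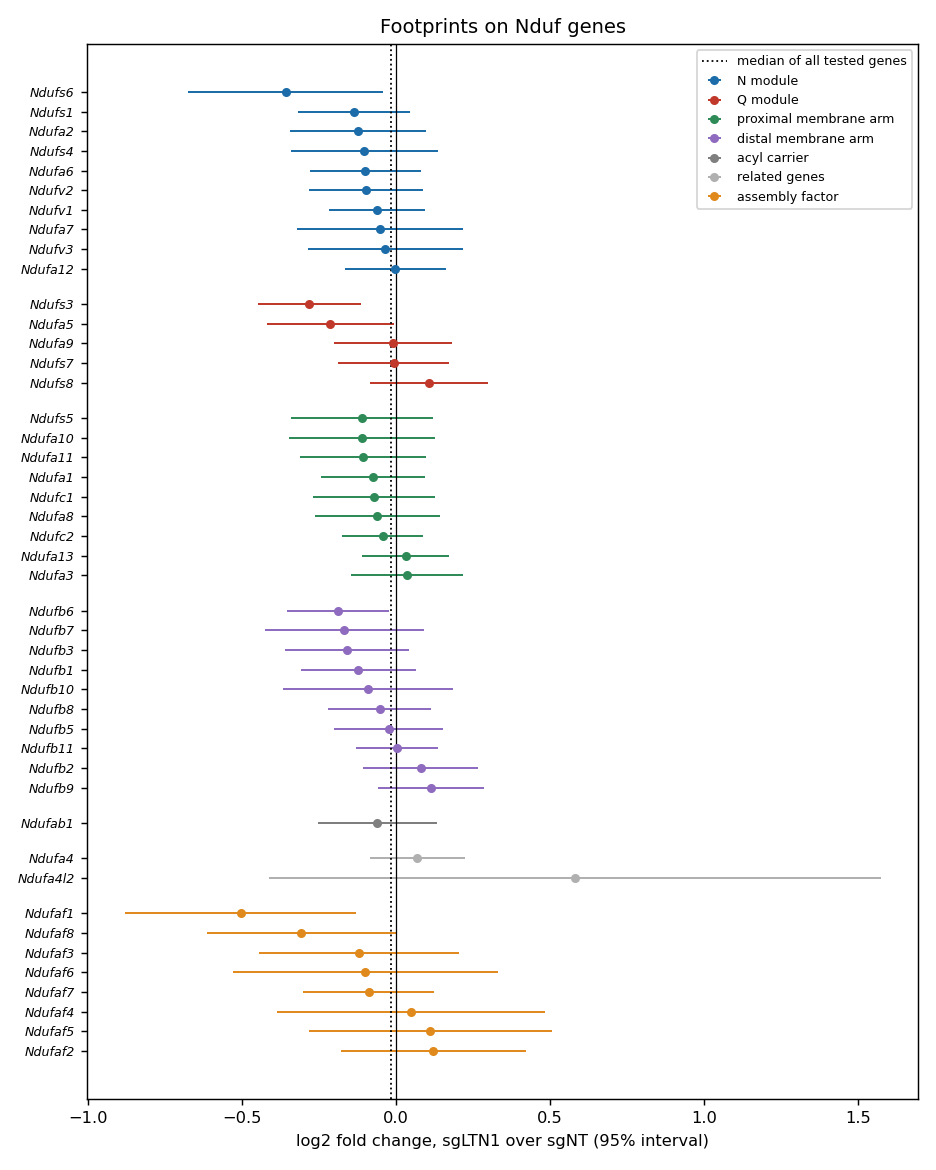
Log2 fold change of footprints (sgLTN1 over sgNT) for tested Nduf genes, grouped by module, with bars for the 95% interval of edgeR's fit. All 10 N module genes lie to the left of 0 with this scaling, Ndufa12 only just, Ndufs3 and Ndufs6 have the lowest values among the subunits, and Ndufa4l2 has the widest interval.

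The lean of the subunits was seen in 2 of the 3 sgLTN1 libraries. Each gene's log2 CPM was set against its own mean over the 6 libraries. In sgLTN1 library 1, 33 of 38 subunit genes lay under their own mean, with a median deviation of -0.086, and in sgLTN1 library 2, 23 of 38 did (-0.056). Only 11 of 38 did so in sgLTN1 library 3, where the median deviation was 0.049, next to 0.047 and 0.061 in sgNT libraries 2 and 3. In sgNT library 1 the median was 0.0020. Without sgLTN1 library 1 the median log2 fold change of the subunits was -0.022, without library 2 it was -0.027, and without library 3 it was -0.093. Of the 9 pairings of an sgLTN1 with an sgNT library, 7 gave a subunit median below 0, from -0.12 to 0.073.

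Summed over the 40 subunit genes, footprints were 3308, 3369 and 3373 CPM in sgNT libraries 1 to 3 and 3143, 3255 and 3407 CPM in sgLTN1 libraries 1 to 3. The lowest and the highest of the 6 values were both from sgLTN1, and the groups overlapped. Summed over the 8 assembly factor genes, they were 88.0, 84.6 and 89.3 CPM in sgNT and 80.2, 81.0 and 80.3 CPM in sgLTN1. Here every sgLTN1 library lay under every sgNT library, and the 3 sgLTN1 values lay close together, at group means of 87.3 and 80.5 CPM. Most of this difference came from Ndufaf1 (means of 11.4 CPM in sgNT and 7.90 CPM in sgLTN1) and Ndufaf8 (14.8 and 11.8 CPM). It is therefore not a shift shared by the assembly factor genes. The ratio of the group means, sgLTN1 over sgNT, was 0.976 for the subunits and 0.922 for the assembly factors. For every 100 subunit counts there were 2.66, 2.51 and 2.65 assembly factor counts in sgNT and 2.55, 2.49 and 2.36 in sgLTN1, values that overlapped. These sums describe the libraries and were not tested.

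**Figure D2:**
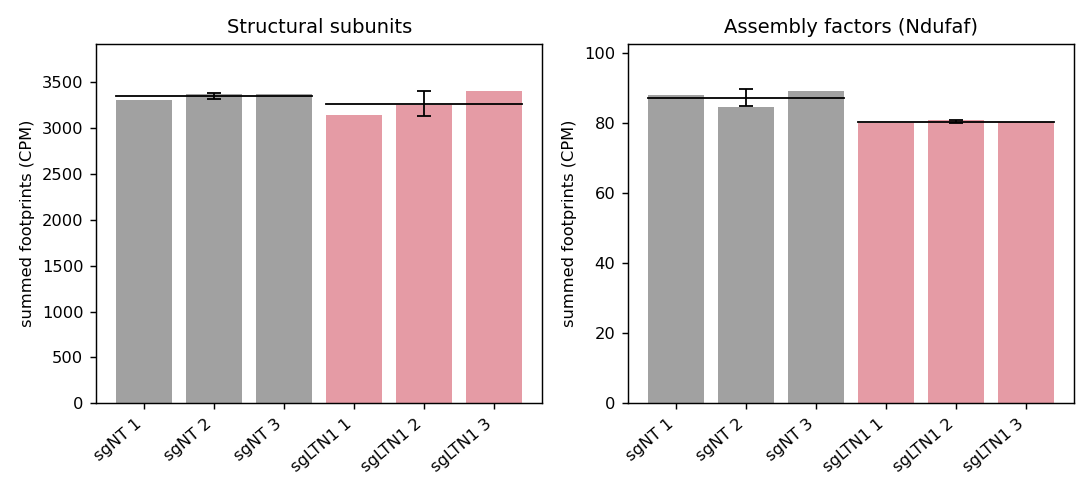
Footprints summed over the 40 subunit genes (left) and the 8 assembly factor genes (right), in CPM, with 1 bar per library and a line and error bar for the mean ± SD of each group (n = 3). For the subunits sgLTN1 library 3 stands above all sgNT libraries, and for the assembly factors the 3 sgLTN1 libraries stand below all sgNT libraries. Most of the assembly factor difference comes from Ndufaf1 and Ndufaf8.

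**Figure D3:**
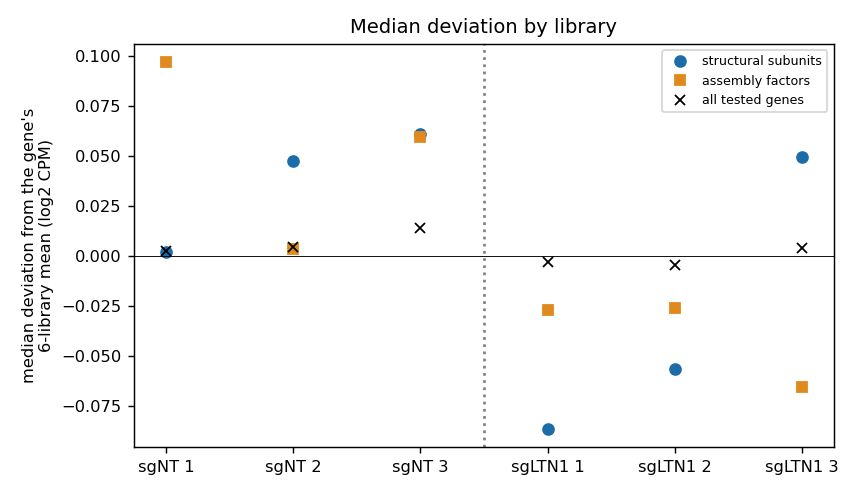
Median deviation of log2 CPM from each gene's mean over the 6 libraries, for 38 subunit genes (circles), 8 assembly factor genes (squares) and all 12782 tested genes (crosses). Subunits lie at -0.086 and -0.056 in sgLTN1 libraries 1 and 2 and at 0.049 in library 3, while assembly factors lie below 0 in all 3.

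Fold changes in this comparison moved with abundance over all genes, and both gene classes were read against genes of like abundance. Between 4 and 6 on the log2 CPM scale, 19 of 22 subunit genes lay below 0 with a median log2 fold change of -0.094, beside 50.8% and a median of -0.0048 for the 3825 genes of that band. Between 6 and 8, 8 of 10 lay below 0 with a median of -0.060, beside 40.0% and 0.043. The 4 members at 8 and over had a median of 0.016 in a band whose median was 0.14. Between 2 and 4, 4 of 7 assembly factor genes lay below 0 with a median of -0.099, in a band with 58.0% below 0 and a median of -0.046. With the abundance trend subtracted, the subunit median was -0.091 with 33 of 38 genes below 0, beside 50.3% of all tested genes. The assembly factor median was then -0.054. Among subunits the lean thus stood further from the trend than from 0, and among assembly factors it stood closer.

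**Figure D4:**
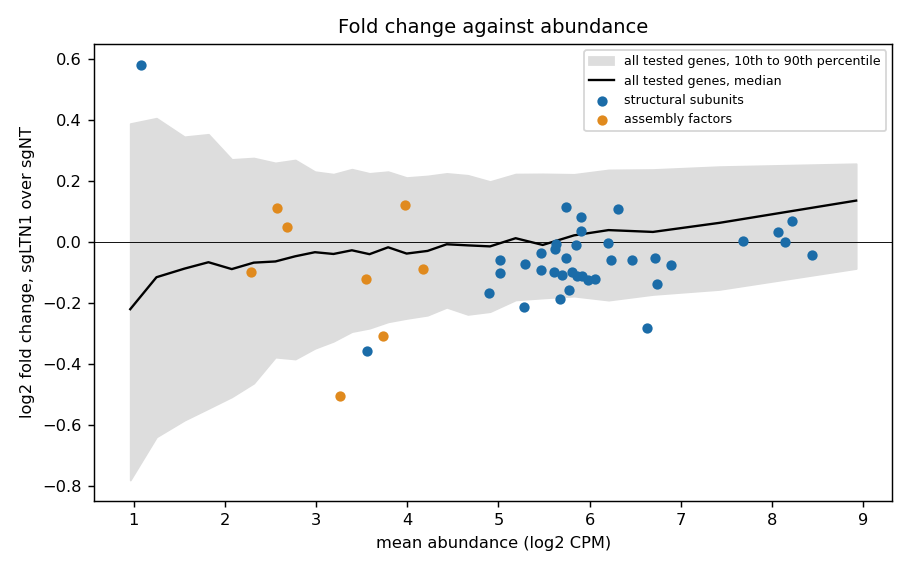
Log2 fold change (sgLTN1 over sgNT) against mean abundance in log2 CPM for the Nduf genes, over the median (line) and the 10th to 90th percentiles (grey) of all tested genes in 25 abundance bins. Most subunit genes (blue) lie under the line, and the assembly factor genes (orange) lie on both sides of it at lower abundance.

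The 7 nuclear core subunits carry the flavin and the iron-sulfur clusters. Here and in what follows, a value in parentheses after a gene, or one a gene is said to be at, is its log2 fold change (sgLTN1 over sgNT) in edgeR's fit, and no Nduf gene without a stated adjusted p passed the threshold either. Ndufs3, part of the Q module and its assembly scaffold, read 119, 102 and 105 CPM in sgNT libraries 1 to 3 and 87.9, 88.6 and 91.2 CPM in sgLTN1 libraries 1 to 3. All sgLTN1 values lay under all sgNT values and close together, with means of 109 ± 9.20 and 89.3 ± 1.75 CPM (log2 fold change -0.28, SE 0.08, adjusted p = 0.138 in edgeR).

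Ndufs7, which holds the last cluster before ubiquinone, read 50.7, 51.7 and 45.7 CPM in sgNT libraries 1 to 3 and 47.6, 48.6 and 52.0 CPM in sgLTN1 libraries 1 to 3. The values overlapped (-0.0078, SE 0.08). Ndufs8, another iron-sulfur subunit of the Q module, read 75.2, 83.9 and 68.0 CPM in sgNT libraries 1 to 3 and 78.1, 84.8 and 83.0 CPM in sgLTN1 libraries 1 to 3. It lay above 0 (0.11, SE 0.09, adjusted p = 0.608 in edgeR's test), with overlapping groups. In the N module, Ndufs1, which carries several clusters, read 112, 121 and 102 CPM in sgNT libraries 1 to 3 and 107, 104 and 93.7 CPM in sgLTN1 libraries 1 to 3 (-0.14, SE 0.08). The sgNT library 3 value lay within the sgLTN1 range.

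Ndufv1, which binds NADH and the flavin, read 92.6, 85.2 and 92.3 CPM in sgNT libraries 1 to 3 and 86.8, 88.9 and 82.4 CPM in sgLTN1 libraries 1 to 3 (-0.060, SE 0.07). Its neighbour Ndufv2 read 55.7, 58.3 and 58.9 CPM in sgNT libraries 1 to 3 and 54.3, 49.5 and 58.8 CPM in sgLTN1 libraries 1 to 3 (-0.097, SE 0.08). In both genes the groups overlapped. Over the 7 core genes the median log2 fold change was -0.060, with 6 below 0, and over the 29 tested supernumerary subunits, which surround the core, it was -0.072, with 24 below 0.

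All 10 genes of the N module lay below 0, with a median log2 fold change of -0.098; leaving out a library at a time gave -0.13 to -0.040. Over the module the median deviation was -0.092, -0.082 and 0.059 in sgLTN1 libraries 1 to 3. Ndufa12 was nearest 0 and lay above it, at 0.019, with DESeq2. In some alternatives Ndufa7, Ndufv3 and Ndufa12 lay above 0, at 0.028, 0.044 and 0.042 at most. The lowest was Ndufs6, a zinc-binding subunit that joins late, with 11.5, 15.1 and 12.1 CPM in sgNT libraries 1 to 3 and 10.2, 9.66 and 11.1 CPM in sgLTN1 libraries 1 to 3. The groups did not overlap, at means of 12.9 ± 1.94 and 10.3 ± 0.723 CPM (log2 fold change -0.36, SE 0.14, adjusted p = 0.262 in edgeR's test), and the gene had 50 to 122 counts per library. The other supernumerary genes were Ndufa2 (-0.12), with a thioredoxin fold, Ndufs4 (-0.10), whose loss in mice is a model of Leigh syndrome, Ndufa6 (-0.10), which binds the acyl carrier protein, Ndufa7 (-0.051), Ndufv3 (-0.035) and Ndufa12 (-0.0021). None of these 6 had groups that did not overlap.

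The Q module was divided. Beside Ndufs3, the small subunit gene Ndufa5 read 38.0, 42.9 and 43.1 CPM in sgNT libraries 1 to 3 and 37.6, 32.6 and 37.4 CPM in sgLTN1 libraries 1 to 3. Its groups did not overlap, sgNT library 1 lying just above the highest sgLTN1 value (log2 fold change -0.21, SE 0.09, adjusted p = 0.304 in edgeR's test). Ndufa9, a nucleotide-binding subunit at the joint with the membrane arm, was at -0.0085 (SE 0.09), close to Ndufs7. Of the 6 genes, 5 lay below 0. Their median log2 fold change was -0.0082, and it was between -0.047 and 0.040 when a library was left out, so that no direction can be given for the median.

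In the proximal membrane arm 7 of 9 genes lay below 0 (median -0.072), between -0.11 and 0.037, and no gene had separate groups. Ndufs5 (-0.11) and Ndufa8 (-0.060) belong to the subunits with paired cysteine motifs, Ndufa10 (-0.11) resembles nucleoside kinases, Ndufa11 (-0.11) is related to import channel proteins and the gene of Ndufa1 (-0.074) is X-linked. Ndufc1 was at -0.072 and its partner Ndufc2 at -0.044, the latter from 14524 counts. Ndufa13, also known as GRIM-19, and Ndufa3 lay above 0 at 0.032 and 0.037.

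The distal membrane arm had 7 of 10 tested genes below 0 (median -0.072). Ndufb6 read 55.7, 55.3 and 51.1 CPM in sgNT libraries 1 to 3 and 47.7, 47.6 and 47.3 CPM in sgLTN1 libraries 1 to 3. The sgLTN1 values were nearly equal and lay under all sgNT values (log2 fold change -0.19, SE 0.08, adjusted p = 0.264 in edgeR's test). Ndufb9, of the family of proteins that dock the acyl carrier, read 51.8, 53.3 and 47.7 CPM in sgNT libraries 1 to 3 and 57.1, 54.2 and 54.2 CPM in sgLTN1 libraries 1 to 3. It was the Nduf gene whose sgLTN1 values all lay above its sgNT values (0.11, SE 0.08, adjusted p = 0.532 in edgeR's test).

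Ndufb3 read 54.8, 59.7 and 57.8 CPM in sgNT libraries 1 to 3 and 46.6, 51.9 and 57.5 CPM in sgLTN1 libraries 1 to 3 (-0.16, SE 0.09). Ndufb7, with paired cysteine motifs, read 31.9, 29.2 and 33.4 CPM in sgNT libraries 1 to 3 and 25.5, 26.1 and 33.5 CPM in sgLTN1 libraries 1 to 3 (-0.17, SE 0.12). In both, sgLTN1 library 3 lay inside or above the sgNT range and the other sgLTN1 libraries below it. Ndufb1 read 68.8, 69.5 and 70.1 CPM in sgNT libraries 1 to 3 and 69.3, 57.2 and 64.9 CPM in sgLTN1 libraries 1 to 3 (-0.12, SE 0.08), with sgLTN1 library 1 among the sgNT values. The remaining genes were Ndufb10 (-0.092), Ndufb8 (-0.052), Ndufb5 (-0.023), Ndufb11 (0.0036) and Ndufb2 (0.080), each with overlapping groups. Ndufb4 had 38 counts over the 6 libraries and Ndufb11b, a further gene with a subunit name, had 8, and neither entered the test.

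Ndufab1, the mitochondrial acyl carrier protein that sits in both arms of the complex, was at -0.060 (SE 0.09). Ndufa4 and Ndufa4l2 carry subunit names but are not complex I subunits, Ndufa4 being assigned to cytochrome c oxidase and Ndufa4l2 known as a hypoxia-induced gene. Ndufa4 was at 0.069 (SE 0.07). Ndufa4l2 read 2.29, 0.990 and 1.29 CPM in sgNT libraries 1 to 3 and 2.35, 1.19 and 3.29 CPM in sgLTN1 libraries 1 to 3. These rest on 6 to 26 counts per library, and both groups spread widely and overlapped (log2 fold change 0.58, SE 0.45, adjusted p = 0.590 in edgeR's test). Without both genes, 30 of 36 subunits lay below 0, with a median of -0.066.

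The assembly factors were counted less deeply than the subunits, with 19 to 195 counts per gene and library and a median of 59.5, where tested subunits had a median of 422.5. Counting error alone gives a coefficient of variation of 13.0% at the typical assembly factor count, and the spread between libraries was of that size, with a median of 13.2% in sgNT and 9.90% in sgLTN1. For subunits, counting error gave 4.87% and the spread was 6.04% and 6.97%.

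Ndufaf1 acts in the assembly of the proximal membrane arm together with Acad9, Ecsit and Tmem126b, and it had the lowest value of all Nduf genes. It read 13.1, 9.77 and 11.2 CPM in sgNT libraries 1 to 3 and 6.77, 9.12 and 7.81 CPM in sgLTN1 libraries 1 to 3. Every sgLTN1 library lay under every sgNT library, the nearest pair being sgLTN1 library 2 and sgNT library 2 (log2 fold change -0.50, SE 0.17, adjusted p = 0.198 in edgeR's test). Its partners did not share this value: Acad9 was at 0.14 (SE 0.11), Ecsit at 0.057 (SE 0.12), Tmem126b at -0.038 (SE 0.11), Timmdc1 at 0.060 (SE 0.16) and Tmem186 at 0.055 (SE 0.15). Per 100 Ecsit counts there were 76, 73.1 and 76.5 Ndufaf1 counts in sgNT and 44.6, 58.7 and 49.4 in sgLTN1. The difference between Ndufaf1 and its partners was not tested.

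Most of the other factors serve the Q module. Ndufaf8, which stabilises Ndufaf5, read 15.6, 12.7 and 16.0 CPM in sgNT libraries 1 to 3 and 12.7, 10.4 and 12.1 CPM in sgLTN1 libraries 1 to 3. The groups did not overlap, but sgNT library 2 and sgLTN1 library 1 were almost equal (log2 fold change -0.31, SE 0.14, adjusted p = 0.318 in edgeR's test). Ndufaf5, which hydroxylates Ndufs7, read 4.81, 5.94 and 5.18 CPM in sgNT libraries 1 to 3 and 5.42, 6.19 and 5.96 CPM in sgLTN1 libraries 1 to 3. Its values overlapped and lay above 0 on balance (0.11, SE 0.18). Ndufaf7, a methyltransferase, read 17.9, 18.4 and 18.8 CPM in sgNT libraries 1 to 3 and 17.6, 16.5 and 17.9 CPM in sgLTN1 libraries 1 to 3. The groups touched, the highest sgLTN1 and the lowest sgNT value being the same when rounded (-0.088, SE 0.10).

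Ndufaf3 and Ndufaf4 bind each other on the early Q module. Ndufaf3 read 10.5, 14.0 and 10.6 CPM in sgNT libraries 1 to 3 and 11.6, 10.3 and 11.1 CPM in sgLTN1 libraries 1 to 3 (-0.12, SE 0.15). Ndufaf4 read 7.33, 5.81 and 5.18 CPM in sgNT libraries 1 to 3 and 5.42, 6.41 and 7.40 CPM in sgLTN1 libraries 1 to 3 (0.048, SE 0.20). Ndufaf6, which acts beside them, read 5.27, 4.45 and 4.75 CPM in sgNT libraries 1 to 3 and 4.69, 4.56 and 3.90 CPM in sgLTN1 libraries 1 to 3 (-0.099, SE 0.19). All 3 had overlapping groups. Ndufaf2, a paralog of Ndufa12 that holds the place of the N module's last subunits, read 13.5, 13.5 and 17.7 CPM in sgNT libraries 1 to 3 and 16.0, 17.5 and 14.2 CPM in sgLTN1 libraries 1 to 3. It was the highest of the assembly factors, with overlapping groups (0.12, SE 0.14), while Ndufa12 itself was at -0.0021.

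**Figure D5:**
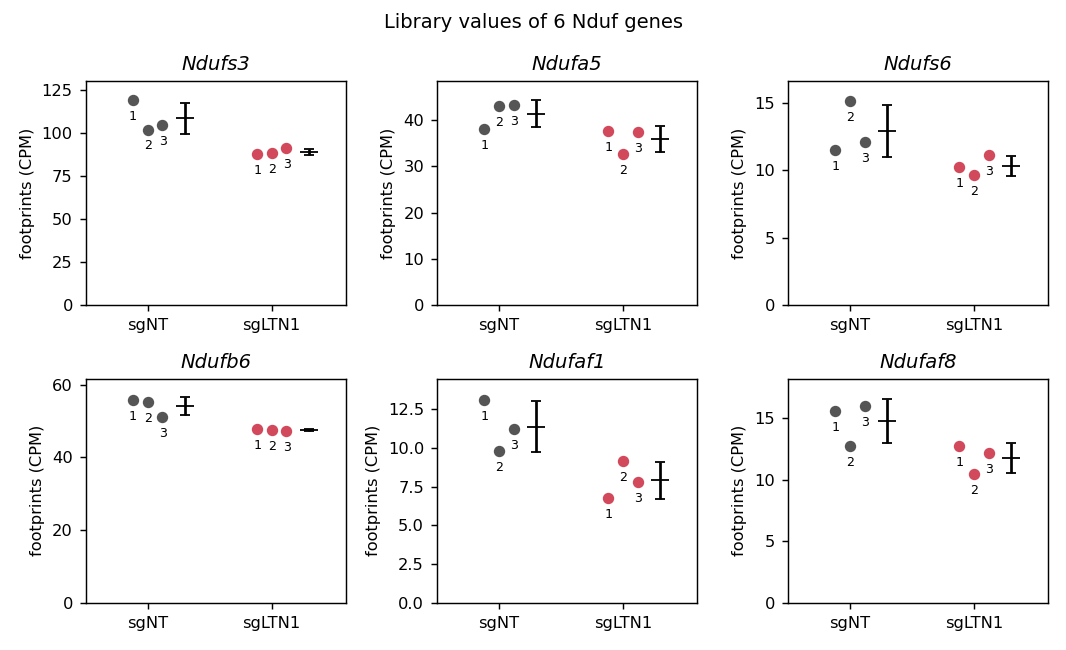
Footprints in CPM of the 6 Nduf genes with an unadjusted p below 0.05, with 1 point per library, numbered, and the mean ± SD of each group (n = 3) beside the points. In each gene all sgLTN1 points lie below all sgNT points, which for Ndufaf8 holds by the distance between sgNT library 2 and sgLTN1 library 1; none of the 6 passed the adjusted threshold.

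The sign of the difference between structural subunits and assembly factors was not the same in all settings. The subunit median lay 0.033 above the assembly factor median, a difference that became -0.014 when sgNT library 1 was left out, -0.024 when sgNT library 2 or sgLTN1 library 3 was, and -0.038 with the abundance trend subtracted. The assembly factor median itself was -0.053 or -0.028 with sgNT library 1 or 2 left out, and -0.049 with sgLTN1 library 2 left out. It also rested on few genes, since Ndufaf1 and Ndufaf8 held the low end and the other 6 lay between -0.12 and 0.12.

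Assembly factors of complex I with other names showed no common direction. Of 15 tested genes, 8 lay below 0 and 7 above, with a median log2 fold change of -0.038, and none passed the threshold in edgeR's test or had an unadjusted p below 0.05. DESeq2 gave an adjusted p to 1 of the 15 and called none, with none at an unadjusted p below 0.05, beside DESeq2's 10.7% and 8.56% over all genes. The smallest p-values were those of Foxred1, an oxidoreductase-like factor (-0.26, SE 0.12), Dmac1, a factor of the distal membrane arm (-0.61, SE 0.31), and Tmem70 (0.20, SE 0.12), and only for Foxred1 did the groups not overlap. The 7 subunits encoded by mitochondrial DNA, which mitochondrial ribosomes translate, had 6 genes below 0 and a median of -0.16. None was called or had an unadjusted p below 0.05 in edgeR, and DESeq2 called none of the 6 with an adjusted p, with 1 of 7 at an unadjusted p below 0.05, beside the same shares. The largest differences by p were at mt-Nd4l (-0.30, SE 0.14), mt-Nd2 (-0.21, SE 0.11) and mt-Nd6 (-0.26, SE 0.14). Summed over the 7 genes they read 2293, 1973 and 2726 CPM in sgNT and 2309.6, 1923 and 1945 CPM in sgLTN1. The groups overlapped, with sgNT library 3 the highest, and sgLTN1 library 3, where nuclear subunits were high, was among the low ones.

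The nuclear subunits of complexes II to V also lay mostly below 0. Of 44 tested entries, 36 lay below 0, with a median log2 fold change of -0.11, and none was called by edgeR or DESeq2. Atp5po is entered more than once among them, and Atp5if1 is an inhibitor rather than a subunit. At an unadjusted p below 0.05 there were 5 in edgeR, all lower, and 1 in DESeq2, where 7.56% of all tested genes were at this level and lower in edgeR and 8.56% at this level in DESeq2. The smallest p-values were those of Atp5if1, the inhibitor of ATP synthase (-0.35, SE 0.10), Atp5mj, a small ATP synthase subunit (-0.24, SE 0.08), and Uqcrb, a subunit of complex III (-0.18, SE 0.07). Their median deviations in sgLTN1 libraries 1 to 3 were -0.076, -0.074 and 0.023, with library 3 the highest here as in the complex I subunits.

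In the authors' deposited table, made with DESeq2, 29 Nduf genes had an adjusted p and none of them was called, where 8.42% of the 2697 genes with an adjusted p were, 1.63% lower. All 29 were subunit genes, and none of the assembly factor genes had an adjusted p there. The lowest was Ndufs3, where the authors' deposited table has -0.26 (SE 0.10) on the log2 scale, adjusted p = 0.0877. Ndufaf1 stood at -0.49 (SE 0.26; unadjusted p = 0.0552) in the authors' deposited table. Of the 48 Nduf genes, 32 were below 0 in the authors' deposited table, beside 48.7% there of the genes that edgeR tested.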

How the data were processed

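Ribosome profiling libraries of MIN6 cells with sgNT or sgLTN1 (3 each, grouped by the genotype label, numbered by title) were analysed from the gene-level counts, whole numbers, that the authors deposited. The submitters' processing notes name STAR 2.7.11a and Bowtie2 2.5.4, featureCounts 2.12.3 and SAMtools 1.9, and also UMI-tools 1.1.2 and fastp 0.23.4, with build GRCm39. Not given in the sources used here: the role of each, the strand setting, the annotation and the handling of multiply aligned reads. Counting errors assume independent reads, and Nduf genes with near-identical copies can lose reads. The other table that the authors deposited holds DESeq2 (1.38.3) results: mean normalized count as signal, log2 fold change with its standard error, Wald score, p-value and adjusted p-value.

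Genes were kept by filterByExpr (12782 of 21652), scaled by TMM and tested in R 4.3.3 with edgeR 4.0.16 (glmQLFit, group as the only term, Benjamini-Hochberg over all tested genes, threshold 0.05; limma 3.58.1). CPM values use TMM-scaled library sizes and log2 CPM a prior count of 2. Standard errors and 95% intervals come from the test statistic. The test was also run on simulated counts, with an outcome that is not reported here. These were drawn independently for each gene and library, so they hold no effect that a library's genes share. Alternatives were DESeq2 1.42.0, total-count and upper-quartile scaling, no filter, at least 10 counts in every library, each library left out, the replicate block, genes above 1% of a library left out, a loess abundance trend (span 0.3) subtracted, and the authors' deposited table. Every replicate pair differed by more than sampling noise (chi-square per degree of freedom of at least 2.40). The values of 1 tested subunit gene are not reported here, though it is in the counts and medians. Of 16 assembly factors of other names, Coa1 was not analysed here. The planned footprint density per coding length was not run, since no protein or coding lengths were used here.

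Genes named: Nduf genes, with library values for core subunits, the assembly factors and the 8 other subunits of smallest p, and the 3 genes of smallest p in each other list. Acad9, Ecsit, Tmem126b, Timmdc1 and Tmem186 were named outside this rule, as partners of Ndufaf1. So were Ltn1, some markers without a test, and mt-Nd3 and Cox7c. The members and lists were chosen with earlier results of these data known.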

Additional observations from a re-analysis of the deposited data

How the results depend on the processing

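No Nduf gene was called under any alternative except the replicate block, which called 1, Ndufs3 (adjusted p = 0.0365 in edgeR). The labels state no shared origin for libraries of the same number, so they were not taken as pairs. Same-numbered libraries correlated at -0.048, 0.067 and 0.088 in their deviations from the group means, and differently numbered ones at -0.12 to 0.095. With so few libraries per group these deviations are tied to each other, so the correlations cannot decide whether the numbers mark pairs. Over all genes the replicate block called 609 and the fit without it 23. Scaling by total counts gave medians of -0.14 for subunits and -0.17 for assembly factors, with the median of all tested genes at -0.092. Leaving out a library at a time gave subunit medians from -0.093 to -0.022, with 22 to 31 of 38 genes below 0. Of all tested genes, 49.3% to 53.2% then lay below 0. The assembly factor medians were from -0.13 to -0.028, and the subunit median minus assembly factor median was from -0.024 to 0.11. This difference was -0.038 with the abundance trend subtracted. The assembly factor median was -0.042 with the factors of other names added. The Q module median was 0.013 with DESeq2, 0.011 without a filter, 0.013 in the authors' deposited table, and -0.047 to 0.040 with a library left out. The causes were not tested. Of 46 tested Nduf genes, 21 stayed below 0 and 6 above 0 in all alternatives run, and 19 changed sign in at least 1. The 95% intervals reach 0.21 to 0.44 on either side of the log2 fold change for assembly factors and 0.13 to 0.99 for subunits, the widest being that of Ndufa4l2. The alternative density measure per coding length was not run.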

Other observations

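Ndufb4, a subunit of the distal membrane arm, was listed with 6, 9 and 5 counts for sgNT and with 7, 10 and 1 for sgLTN1, in the order of the library numbers. No other gene of that arm had under 139 counts in a library. The RefSeq gene table lists further genes with this name, Ndufb4b and Ndufb4c, which were not analysed here, and whether reads were divided among such copies was not tested. Similarly few counts were listed for mt-Nd3 (76 over the 6 libraries) and, among subunits of cytochrome c oxidase, for Cox7c (50), both chosen after their values were seen. No level was compared between genes per length, since no coding lengths were used here.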
